A study of Homo sapiens with 15 samples.

Results

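Class I antigen presentation genes were followed in A549 cells, a human lung adenocarcinoma line of alveolar epithelial origin, by RNA-seq after 72 hours in 95% O2 (hyperoxia) or 21% O2 (normoxia). The set is 9 of the 43388 gene symbols counted in each library, taken by name without regard to their values: the heavy chains HLA-B, HLA-C, HLA-E and HLA-F, the light chain B2M, the peptide transporter subunits TAP1 and TAP2, the loading chaperone TAPBP and the transactivator NLRC5. All 9 passed the filter on low counts. Cells were wild type in every group. Libraries were labelled with 1e-05 mM ATRA (all-trans retinoic acid, 3 hyperoxia and 3 normoxia libraries), with its ethanol vehicle (2 and 2), or with oxygen exposure and no additive (2 and 2). ATRA or vehicle was given for 24 hours before the exposure. The model is limited to a single tumor-derived line, and nothing in the labels says that replicate libraries came from separate cultures, so p-values measure the spread between libraries, which may be technical. In bulk RNA, fewer cells expressing a gene and less of its RNA per cell cannot be told apart.

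Class I molecules show peptides from inside the cell to CD8+ T cells. Proteasomes cut proteins into peptides, the TAP1/TAP2 heterodimer pumps these into the endoplasmic reticulum, and tapasin (TAPBP) with calreticulin, calnexin and PDIA3 loads them onto a heavy chain paired with beta-2-microglobulin (B2M). HLA-E carries leader peptides of other heavy chains and is read by NKG2A and NKG2C receptors on natural killer cells. Interferons and NF-kB drive these genes, interferon in part through IRF1, while NLRC5 acts with RFX, CREB/ATF and NF-Y factors at the SXY module of class I promoters.

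The promoters are shown because the measured genes differ in which exact motif matches their start regions hold. Only the letters given below were searched, so a window without a match may still hold a looser form of that element. Windows of 300 bases that span each start, most of each window lying before it, were given by RefSeq (GRCh38.p14) for 7 of the 9 genes, HLA-B, HLA-C, HLA-F, B2M, TAP1, TAP2 and TAPBP. HLA-E and NLRC5 had no entry. TAP1 had a second window, at a start inside the gene, and the counts of windows use its outermost one. Capitals mark matches to the IRF element (GAAA, any 2 bases, GAAA), the NF-kB consensus (GGGRNWYYCC) and the CRE core of the SXY module (TGACGC). In these patterns R is A or G, Y is C or T, W is A or T, and N is any base. Both strands were searched, and each sequence runs 5′ to 3′ along the gene.
TAP1, chr6:32853655-32853954, minus strand: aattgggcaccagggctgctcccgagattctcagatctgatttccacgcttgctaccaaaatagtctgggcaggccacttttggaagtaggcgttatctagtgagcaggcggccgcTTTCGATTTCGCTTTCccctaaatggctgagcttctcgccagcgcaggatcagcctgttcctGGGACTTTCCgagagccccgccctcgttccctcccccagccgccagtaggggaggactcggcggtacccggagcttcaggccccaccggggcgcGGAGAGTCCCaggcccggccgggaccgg
TAP2, chr6:32838690-32838989, minus strand: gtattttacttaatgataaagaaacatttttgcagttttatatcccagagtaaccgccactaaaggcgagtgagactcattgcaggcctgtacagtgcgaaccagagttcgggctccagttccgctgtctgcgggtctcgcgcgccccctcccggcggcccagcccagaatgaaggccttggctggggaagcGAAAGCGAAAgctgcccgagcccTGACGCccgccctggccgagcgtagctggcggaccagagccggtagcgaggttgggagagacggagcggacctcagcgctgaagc
B2M, chr15:44711267-44711566, plus strand: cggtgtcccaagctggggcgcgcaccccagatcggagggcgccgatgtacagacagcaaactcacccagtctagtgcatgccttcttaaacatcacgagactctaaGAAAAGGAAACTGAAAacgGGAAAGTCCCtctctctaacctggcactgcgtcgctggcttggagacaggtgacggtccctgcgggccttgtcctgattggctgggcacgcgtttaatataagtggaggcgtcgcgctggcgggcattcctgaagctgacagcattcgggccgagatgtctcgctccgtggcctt
TAPBP, chr6:33314029-33314328, minus strand: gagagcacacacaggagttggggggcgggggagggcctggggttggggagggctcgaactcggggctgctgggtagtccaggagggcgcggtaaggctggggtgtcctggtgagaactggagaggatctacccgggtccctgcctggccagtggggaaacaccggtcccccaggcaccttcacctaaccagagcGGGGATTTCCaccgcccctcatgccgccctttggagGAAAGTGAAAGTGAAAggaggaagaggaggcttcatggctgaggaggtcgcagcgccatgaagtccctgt
HLA-B, chr6:31357130-31357429, minus strand: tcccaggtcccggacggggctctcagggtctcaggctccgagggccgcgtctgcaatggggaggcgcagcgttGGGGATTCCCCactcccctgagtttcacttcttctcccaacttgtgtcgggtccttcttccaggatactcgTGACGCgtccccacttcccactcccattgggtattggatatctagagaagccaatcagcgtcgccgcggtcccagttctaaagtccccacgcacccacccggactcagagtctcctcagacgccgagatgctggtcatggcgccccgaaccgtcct
An IRF element was found in 5 of the 7 windows (HLA-F, B2M, TAP1, TAP2 and TAPBP), against 3.57% of all 35114 promoters of the same length. The NF-kB consensus also occurred in 5 of 7 (HLA-B, HLA-C, B2M, TAP1 and TAPBP), against 5.91% of all promoters. TAP1 and TAP2 therefore differ in these letters, since both hold an IRF element and only TAP1 of the pair holds the NF-kB consensus. Only TAP2 of the pair holds the CRE core. B2M and TAPBP hold both an IRF element and the NF-kB consensus. Neither was called between hyperoxia and normoxia with all 14 libraries (log2 fold changes 0.04 and -0.23 by edgeR). Whether a match bears on the response of a gene was not tested. The CRE core was in 3 of 7 (HLA-B, HLA-C and TAP2; 9.14% of all) and the CCAAT box, which is not in capitals, in 5 of 7 (34.6% of all). IRF matches overlapped each other in B2M, TAP1 and TAPBP, as did the NF-kB matches in HLA-B. None of these 7 windows held the GAS element TTCNNNGAA (7.66% of all promoters), a p53 consensus half-site (RRRCWWGYYY, 6.63%) or the retinoic acid DR5 element, GNTCA repeated after 5 bases (0.672%). This says only that these letters are not in these windows. The second TAP1 window (chr6:32852712-32853011) held a GAS match and none of the other motifs. The HLA-B and HLA-C windows were 88.5% identical over 304 aligned columns.

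**Figure D1:**
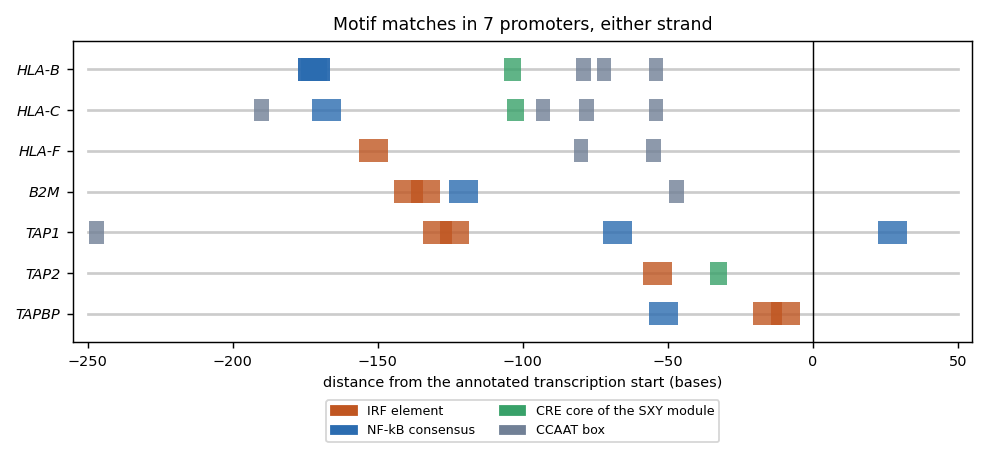
Motif matches in the 7 promoter windows by distance from the annotated start in bases, with each box spanning a match on either strand. The HLA-B and HLA-C matches to the NF-kB consensus and CRE core lie at similar distances, and in TAP1, B2M and TAPBP an IRF element lies in the same window as an NF-kB match.

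Library sizes were 2642377 to 5605072 counts on genes in the 14 libraries with a group, and 3 counts corresponded to 0.530 to 1.15 CPM (counts scaled to library size, corrected for library composition by TMM), which covers counting error only. One library, hyperoxia without additive replicate 1, stood apart. It had counts on 12657 genes where the other 13 had 16465 to 20108, and it lay at -199 on the first principal component where the others lay between -9.27 and 35.6. For the 9 genes, calls that it changes over the 3 treatments, and the direction of TAP2, are given with and without it. This was not done for the lists of other genes. The epithelial markers KRT8 and KRT18 were at 1133 to 5913 and 508 to 3495 CPM, and of the leukocyte markers PTPRC was at 0 in 13 of 14 libraries and CD3E at 0 in all, while CD14 reached 15.3 CPM and CD68 103 CPM. EPCAM was near the floor, at no more than 4.80 CPM. TALAM1, antisense to MALAT1, held 1.87 to 2.01 times the counts of MALAT1 in these 14 libraries, so a count may include reads of the opposite strand, those of the 9 genes too; how many was not tested, and every level and fold change given here has that limit.

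Between hyperoxia and normoxia, 2 of the 9 genes rose: TAP1, about 2.11-fold, and HLA-E, about 1.73-fold, as the mean of the log2 differences in the 3 treatments (7 libraries against 7). No member fell. Of all 15339 genes tested, 31.1% were called in either direction and 15.5% as higher (edgeR's quasi-likelihood test, Benjamini-Hochberg adjusted p under 0.05), so 2 of 9 is near the background. Leaving out the library that stood apart changed the calls of HLA-C and TAPBP, given with each gene below. That fit leaves a single hyperoxia library without additive, and it called more of all genes too. The changed calls are therefore not counted here or read as a stronger response of the 9. With all libraries, the median log2 fold change of the 9 was 0.40, beside -0.03 over all genes. TAP1 and HLA-E were also the members whose CPM did not overlap between the 7 hyperoxia and the 7 normoxia libraries; 6.34% of all genes were higher without overlap and 7.31% lower.

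TAP1, the subunit that forms the transporter with TAP2, lies on chromosome 6 from 32845209 to 32853704 (GRCh38.p14), in the class II region of the MHC. In hyperoxia its CPM was 78.5 and 80.8 without additive, 67.6 and 75.9 with vehicle, and 74.8, 78.8 and 87.4 with ATRA. In normoxia it was 24.0 and 39.8 without additive, 37.2 and 33.3 with vehicle, and 37.8, 48.1 and 46.3 with ATRA. The lowest hyperoxia library was thus above the highest normoxia library in all 3 treatments. TAP1 had a log2 fold change of 1.07 (SE 0.12, adjusted p = 6.78e-06 by edgeR), and 1.08 without the library that stood apart. It was called in each treatment, at 1.03 with vehicle, 1.32 without additive and 0.87 with ATRA (adjusted p = 0.00847, 0.00106 and 0.00529 by edgeR). With vehicle alone the call was lost when hyperoxia replicate 2 or either normoxia library was left out, with TAP1 between 0.94 and 1.11 on the log2 scale over all libraries left out. PSMB8-AS1, a noncoding gene overlapping the TAP1 locus, held 31.4% as many counts as TAP1, and the strand setting of the counting was not given in the sources used here. PSMB9, the immunoproteasome subunit beside TAP1 on the other strand, was at 0 to 8.03 CPM in hyperoxia and 3.90 to 18.1 CPM in normoxia (log2 fold change -1.19, SE 0.49, adjusted p = 0.0822 by edgeR).

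**Figure D2:**
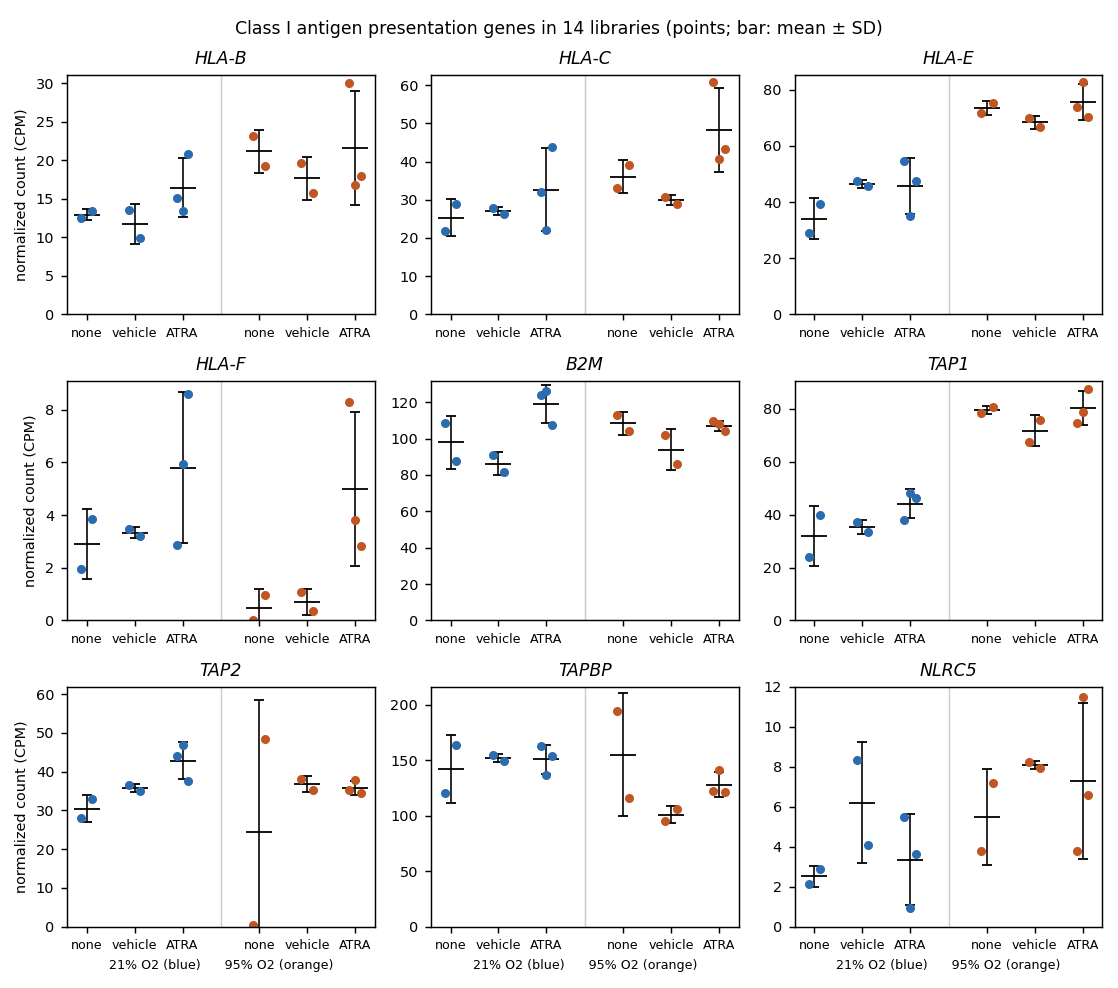
Normalized counts (CPM) of the 9 genes in the 14 libraries by treatment, 21% O2 in blue and 95% O2 in orange; points are libraries and bars the mean ± SD of 2 or 3 libraries. TAP1 and HLA-E are higher in every hyperoxia library, and 1 hyperoxia library without additive holds almost no TAP2 and the highest TAPBP.

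The partner subunit TAP2 (chromosome 6, 32821831 to 32838739) gave no such difference. Its CPM in hyperoxia was 0.399 and 48.5 without additive, 38.2 and 35.3 with vehicle, and 35.2, 37.9 and 34.5 with ATRA. In normoxia TAP2 was at 28.1 and 32.9, 36.5 and 34.9, and 44.1, 46.8 and 37.5 CPM in the same order. Except for the library that stood apart, where TAP2 had 2 counts, the exposures overlapped. The log2 fold change was -0.20 (SE 0.44, 95% interval -1.13 to 0.73, adjusted p = 0.777 by edgeR), and without that library it was 0.15 (adjusted p = 0.402 by edgeR), so its direction rests on 1 library. Leaving out the other hyperoxia library without additive gave -2.16, which passed. Of the 50-base words in the canonical TAP2 transcript 35.3% also occur in a transcript annotated to another gene. Its counts may depend on how shared reads were treated, which was not tested. The ratio of the TAP1 to the TAP2 count within a library does not depend on scaling. On the log2 scale it ranged from 0.73 to 7.30 in hyperoxia and from -0.23 to 0.30 in normoxia, without overlap. The difference in mean was 1.90 (exact two-sided permutation test, 7 against 7 libraries, p = 0.000583, the smallest this design can give; adjusted over 2 ratios 0.00117), and without the library that stood apart it was 1.00 (exact permutation p = 0.00117).

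HLA-E, the non-classical heavy chain (chromosome 6, 30489509 to 30494194), had 71.7 and 75.2 CPM without additive, 70.0 and 66.7 with vehicle, and 73.9, 82.6 and 70.4 with ATRA in hyperoxia. In normoxia HLA-E was at 28.9 and 39.3, 47.6 and 45.6, and 54.5, 35.0 and 47.6 CPM. Normoxia libraries spread more widely than hyperoxia libraries, and all lay below them. The log2 fold change of HLA-E was 0.79 (SE 0.12, adjusted p = 0.000102 by edgeR), and 0.80 without the library that stood apart. It was 1.11 without additive and 0.72 with ATRA (adjusted p = 0.00322 and 0.0144 by edgeR), and 0.55 with vehicle, where it did not pass (adjusted p = 0.150 by edgeR). That difference between treatments was not tested. The call without additive was lost without normoxia replicate 1, and that with ATRA without hyperoxia or normoxia replicate 2. Over the 14 libraries the log2 CPM of HLA-E and TAP1 had a Pearson r of 0.89, a description over libraries that share the oxygen exposure.

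The classical heavy chains HLA-B and HLA-C, which present peptide to T cells, were higher in mean in hyperoxia, without passing the test. HLA-B (chromosome 6, 31353875 to 31357179) was at 23.2 and 19.2, 19.6 and 15.7, and 30.1, 16.8 and 17.9 CPM without additive, with vehicle and with ATRA in hyperoxia. In normoxia it was at 12.5 and 13.4, 13.6 and 9.93, and 15.1, 13.4 and 20.8 CPM. A single normoxia ATRA library, at 20.8 CPM, was above 5 of the 7 hyperoxia libraries. The log2 fold change of HLA-B was 0.57 (SE 0.22, adjusted p = 0.0587 by edgeR), and it passed without hyperoxia ATRA replicate 2 (0.62, adjusted p = 0.0467 by edgeR) and without hyperoxia no-additive replicate 2 (0.58, adjusted p = 0.0216 by edgeR). For HLA-C (31268749 to 31272092) the hyperoxia values were 33.0 and 39.1, 30.7 and 29.0, and 60.8, 40.6 and 43.2 CPM. Its normoxia values were 21.8 and 28.8, 27.8 and 26.2, and 32.1, 22.2 and 43.7 CPM. The log2 fold change of HLA-C was 0.40 (SE 0.17, adjusted p = 0.0878 by edgeR), and it passed without the library that stood apart (0.44, adjusted p = 0.0407 by edgeR) and without normoxia ATRA replicate 3 (0.49, adjusted p = 0.0387 by edgeR). Of the 50-base words in the canonical transcripts, 2.56% for HLA-B, 6.76% for HLA-C and 6.16% for HLA-E also occur in another gene, and 7.83% to 8.91% of reads had no unique place and were not counted.

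HLA-F (chromosome 6, 29723434 to 29738532), a heavy chain found mostly inside the cell, was at the edge of detection. Its counts in hyperoxia were 0 and 3 without additive, 4 and 2 with vehicle, and 46, 10 and 12 with ATRA. In normoxia HLA-F had 10 and 16, 10 and 18, and 11, 19 and 33 counts. Without ATRA the hyperoxia libraries were therefore all below the normoxia libraries, while with ATRA the exposures overlapped. How many of all genes show this pattern was not tested, and the hyperoxia counts without ATRA were very low. For HLA-F the ATRA effect in hyperoxia minus that in normoxia was 2.04 on the log2 scale (interval -1.05 to 5.13). It was not called by edgeR, so the pattern is not read as a dependence of the oxygen response on ATRA. The log2 fold change of HLA-F for oxygen over the 3 treatments was -1.71 (SE 0.65, adjusted p = 0.0571 by edgeR). This oxygen change passed by DESeq2 (-1.78, adjusted p = 0.0148) but not by edgeR. By edgeR it passed without hyperoxia ATRA replicate 1 (-1.91, adjusted p = 0.0414) or hyperoxia no-additive replicate 2 (-3.06, adjusted p = 0.00219). HLA-F-AS1, which overlaps the gene, held 19.1% as many counts.

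The light chain B2M (chromosome 15, 44711517 to 44718145), shared by all class I heavy chains, showed no difference past the test. B2M was at 113 and 104, 102 and 86.2, and 109, 108 and 104 CPM in hyperoxia, and at 108 and 87.8, 90.7 and 81.8, and 124, 126 and 107 CPM in normoxia. Both exposures covered nearly the same range. The log2 fold change was 0.04 (SE 0.09, 95% interval -0.15 to 0.22, adjusted p = 0.777 by edgeR). The summed HLA-B and HLA-C count over the B2M count, on the log2 scale, was -1.01 to -0.27 in hyperoxia and -1.82 to -0.73 in normoxia, which overlap. Its mean was 0.46 higher in hyperoxia (exact two-sided permutation test, 7 against 7 libraries, p = 0.0163; adjusted over 2 ratios 0.0163), and with only the 10 vehicle and ATRA libraries 0.47 (exact permutation p = 0.0714). Per kb of canonical transcript B2M had the highest median level of the 9 genes in both exposures, at 110.4 CPM per kb in hyperoxia and 114 in normoxia, against 29.2 and 14.1 for TAP1 and 1.06 and 0.537 for NLRC5.

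TAPBP (chromosome 6, 33299694 to 33314078), tapasin, which bridges the transporter and the heavy chain, was at 194 and 116, 95.2 and 106, and 122, 140.8 and 121 CPM in hyperoxia. Its normoxia values were 121 and 163, 154 and 149, and 162, 137 and 153 CPM. The highest value belonged to the hyperoxia library that stood apart. TAPBP had a log2 fold change of -0.23 (SE 0.11, adjusted p = 0.137 by edgeR) with that library and fell by 0.38 without it (adjusted p = 0.00394 by edgeR). It also fell with only the 10 vehicle and ATRA libraries (-0.42, adjusted p = 0.00179 by edgeR) and without normoxia no-additive replicate 1 (-0.33, adjusted p = 0.0474 by edgeR). RGL2, a gene overlapping TAPBP, held 11.6% as many counts. NLRC5 (chromosome 16, 56989557 to 57083520), the class I transactivator, was low, with 19 to 45 counts per library in hyperoxia and 3 to 24 in normoxia. Its log2 fold change was 0.86 (SE 0.46, adjusted p = 0.175 by edgeR), and the exposures overlapped.

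**Figure D3:**
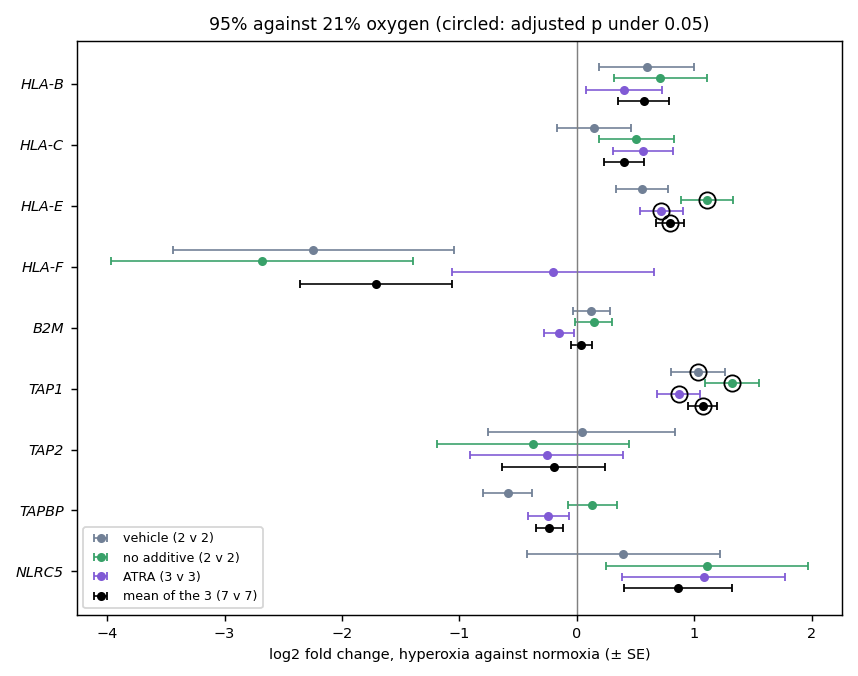
Log2 fold change (± SE) of hyperoxia against normoxia for each gene with vehicle, without additive, with ATRA and as the mean of the 3; circles mark an adjusted p under 0.05 by edgeR. TAP1 is circled in all 4 comparisons and HLA-E in all but the vehicle comparison, while HLA-F and NLRC5 have the widest errors.

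Within single treatments, 1 of 9 genes was called with vehicle (9.26% of all genes, 4.62% as higher), 2 of 9 without additive (15.2%, 7.57% as higher) and 2 of 9 with ATRA (12.9%, 6.45% as higher), each as higher. With vehicle the 1 was TAP1, and in both other treatments the 2 were TAP1 and HLA-E. Fitting only the groups compared gave 4 calls with vehicle (TAP1, HLA-E, HLA-F and TAPBP), where 33.0% of the genes tested were called, and 0 without additive, where 0.419% were.

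ATRA against vehicle, the comparison that asks whether retinoic acid moves these genes, called 0 of 9 genes in hyperoxia and 0 of 9 in normoxia by edgeR, and 0 by DESeq2. Among all genes 0.756% and 0.456% were called, and 7.92% and 5.23% had an unadjusted p under 0.05. At an unadjusted p under 0.05, 2 genes of 9 passed in hyperoxia by edgeR, HLA-C (log2 fold change 0.70, SE 0.29, adjusted p = 0.511) and HLA-F (2.84, SE 1.15, adjusted p = 0.495). All 3 ATRA libraries lay above both vehicle libraries in hyperoxia for 5 of 9 genes (HLA-C, HLA-E, HLA-F, B2M and TAPBP), and for 14.8% of all genes tested. In normoxia that held for 3 of 9 (B2M, TAP1 and TAP2; 13.1% of all genes), and 1 gene, B2M, had an unadjusted p under 0.05 by edgeR (0.47, SE 0.15, adjusted p = 0.387). With 3 against 2 libraries the intervals stay wide, for example -0.27 to 0.59 for TAP1 in hyperoxia. The ATRA effect in hyperoxia minus that in normoxia called 0 of 9 genes by edgeR and 0 by DESeq2, with 0 at an unadjusted p under 0.05 (3.53% of all genes) and 0.0261% of all genes called. For TAP1 this difference was -0.16 (95% interval -0.79 to 0.46) and for HLA-E 0.17 (-0.44 to 0.77). Vehicle against no additive called 0 of 9 by edgeR and 0 by DESeq2 as well, with 0 at an unadjusted p under 0.05 (3.3% of all genes) and 0.00652% of all genes called.

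**Figure D4:**
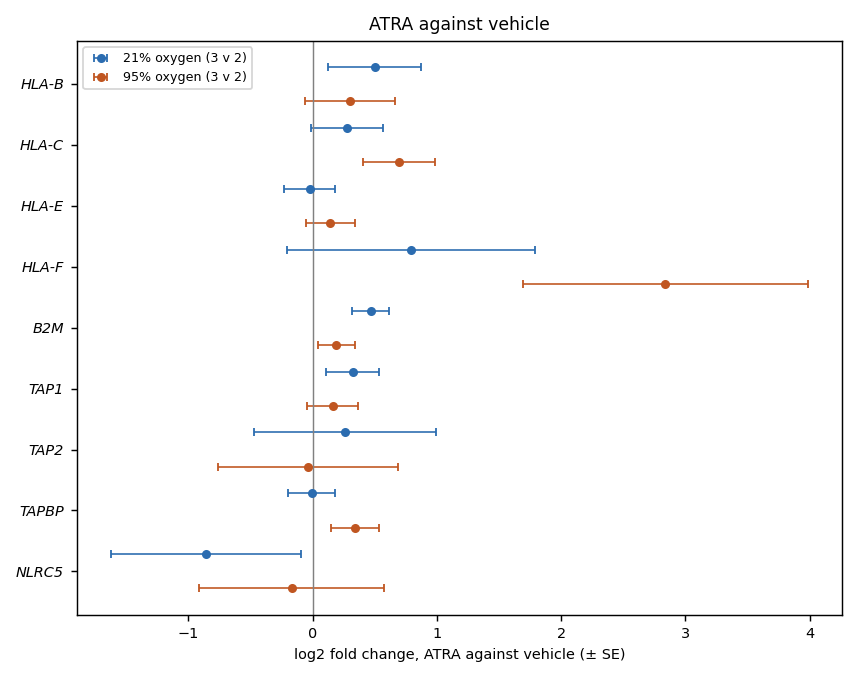
Log2 fold change (± SE) of ATRA against vehicle in 21% oxygen (blue) and 95% oxygen (orange), 3 against 2 libraries each. No gene passes an adjusted p under 0.05, and HLA-F in hyperoxia has the largest value, 2.84, with a standard error of 1.15.

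Of 20 genes that supply, trim or load peptides, 3 rose and 6 fell in hyperoxia, where 15.5% of all genes were called in each direction. Their median log2 fold change was -0.32 beside -0.03 over all genes. In the 6 alternative settings other than leaving out single libraries, 2 to 3 of these genes rose and 6 to 9 fell. CALR and PDIA3, chaperones of the loading complex, fell to 154 to 336 CPM from 432 to 601 and to 80.5 to 135 CPM from 157 to 228 (fitted folds of 0.499 and 0.604). The cytosolic aminopeptidase BLMH fell by 0.82, and SEC61A1, the translocon channel, rose by 0.76 (all 4 genes with an adjusted p of at most 0.000324 by edgeR). Epithelial markers moved with the same contrast: 5 of 5 fell, and their summed level was 1685 to 4203 CPM in hyperoxia and 5743 to 9562 CPM in normoxia. With ATRA against vehicle in hyperoxia, 2 of the 5 were called higher and 0 lower, where 0.756% of all genes were called. These were KRT8 and KRT18 (log2 fold changes 1.01 and 0.97), and each call was lost when any of 3 single libraries was left out. Among 25 tested genes of interferon signalling and class I control, 8 rose and 3 fell against the same 15.5% in each direction, with a median log2 fold change of 0.088. SOCS3, a feedback inhibitor of cytokine signalling, rose by 1.95 (47.1 to 84.6 CPM against 9.36 to 28.2), NFKB2 by 1.31, STAT3 by 0.73 and RELA by 0.71 on the log2 scale (adjusted p of at most 8.48e-06 by edgeR). NFKB2 was lower with ATRA than with vehicle in hyperoxia (log2 fold change -1.03, SE 0.17, adjusted p = 0.00699 by edgeR), at 84.0, 113 and 139 CPM against 222 and 234. Leaving out either hyperoxia vehicle library ended that call (adjusted p = 0.0820 and 0.130 by edgeR).

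**Figure D5:**
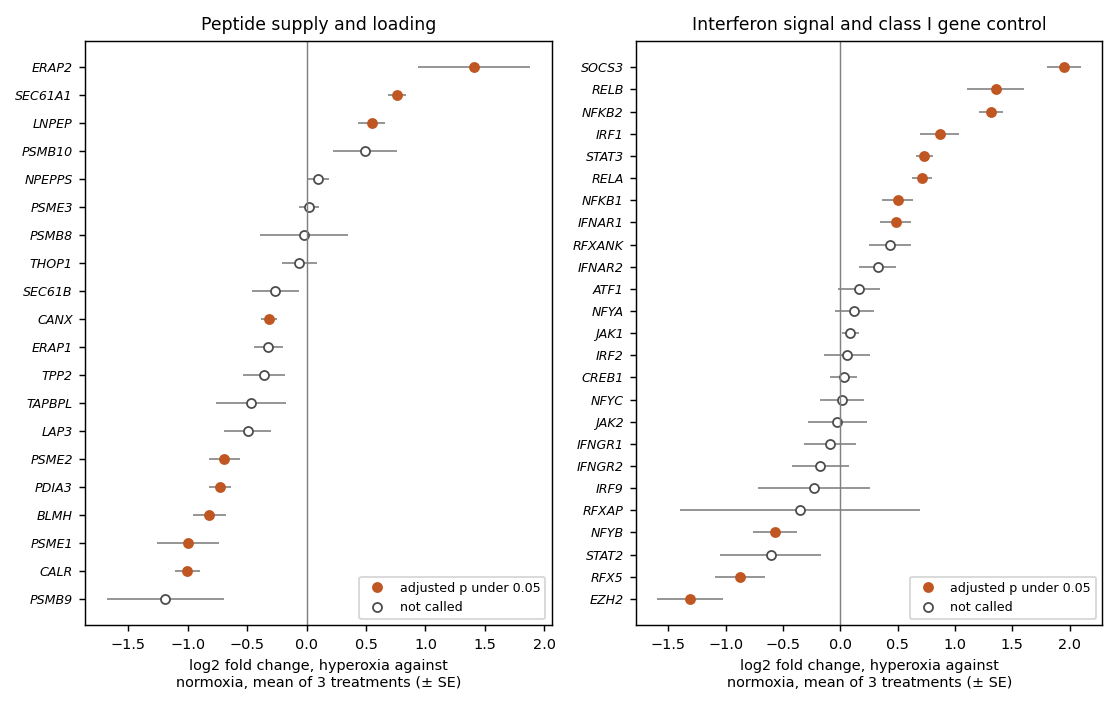
Log2 fold change (± SE) of hyperoxia against normoxia, mean of the 3 treatments, for the tested genes that supply or load peptides (left) and that carry interferon signals or control class I genes (right); filled points have an adjusted p under 0.05 by edgeR. On the left 3 genes are higher and 6 lower, and on the right 8 higher and 3 lower.

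In the class I-like and NKG2D ligand list, 1 of 9 tested genes rose and 0 fell. Of all genes 15.5% were called in each direction, a share that also stands beside the class II and leukocyte calls below. In 5 of the 6 alternative settings other than leaving out single libraries, some genes of this list fell, at most 2. The gene that rose was MR1, which presents vitamin B metabolites to MAIT cells. MR1 was at 31.3 to 63.7 CPM in hyperoxia and 11.8 to 22.2 in normoxia (log2 fold change 1.70, SE 0.16, adjusted p = 5.92e-07 by edgeR). Class II genes were nearly silent. Of 12 listed, 3 had enough counts to test and 5 had no count in any library. HLA-DMB was at 0 to 6.31 CPM in hyperoxia and 4.49 to 15.4 in normoxia (log2 fold change -2.13, SE 0.70, adjusted p = 0.0304 by edgeR). That call was lost when any of 7 single libraries was left out. The leukocyte list summed to 60.7 to 103 CPM in hyperoxia and 20.4 to 48.1 in normoxia, most of it CD68, a lysosomal protein. CD68 was called higher and the monocyte marker CD14 lower in hyperoxia (log2 fold changes 1.72 and -3.30), the only 2 of the 6 with enough counts to test, and their part in these results was not tested. Fibroblast and endothelial markers summed to at most 12.2 and 6.26 CPM in any library.

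The genes whose log2 CPM ran most closely with a member over the 14 libraries, among 10412 genes with a mean of at least 10 CPM, were SNORD17, YDJC and BAX for TAP1 (Pearson r 0.97, 0.96 and 0.96). For B2M they were DOCK11, TMEM126B and JAK1 (0.87, 0.83 and 0.82), for HLA-B ZNF827, TSPAN17 and MAPK8IP1 (0.87, 0.86 and 0.85), and for NLRC5 RANGRF, ZBTB7B and PPAN-P2RY11 (0.93, 0.90 and 0.89). These are descriptions over libraries that share the oxygen contrast. Among the members, HLA-B and HLA-C had an r of 0.81 and TAP1 and TAP2 of -0.21.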

How the data were processed

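The authors deposited raw HTSeq counts for each gene symbol; their notes name Trimmomatic 0.38 for trimming, HISAT2 for alignment and hg38 as the genome. The annotation, strand and overlap settings of the counting were not given in the sources used here; the library kit kept strand. Reads outside genes were 48.6% to 55.3% of reads and stayed out of library sizes. TALAM1, antisense to MALAT1, held 1.87 to 2.01 times its counts in the 14 grouped libraries (a pair chosen after its values were seen).

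The 14 libraries with a group were fitted together in 6 groups with edgeR 4.0.16 in R 4.3.3 (TMM, filterByExpr with a minimum count of 10 and a total of 15, quasi-likelihood test), which tested 15339 genes; p-values were adjusted by Benjamini-Hochberg over all of them. CPM used TMM-scaled library sizes, and log2 CPM a prior count of 2. Both count ratios used a pseudocount of 0.5 and exact permutation tests in scipy 1.17.1. Intervals are 95%. Gene positions and promoters came from RefSeq (GRCh38.p14) and transcript lengths from GENCODE. The procedure was tested on simulated data. A library titled hyperoxia whose treatment label names another treatment entered no comparison.

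The genes and lists were chosen with earlier results of these data known, and 1 gene of the interferon list is not reported here. Named were all 9 genes, from each list up to 4 genes with the smallest p for oxygen and up to 2 for ATRA in hyperoxia among those called, the 3 genes most like B2M, HLA-B, TAP1 and NLRC5, and genes overlapping a member. EPCAM, PTPRC, CD3E, CD14, CD68, PSMB8, PSMB9 and PSMB10 were named besides this rule, after their values were seen. Alternatives were DESeq2 1.42.0, RLE factors, library totals alone, no filter, the 10 vehicle and ATRA libraries, only the groups compared, a term for library-number sets inferred from titles, and leaving out each library. Plots were drawn with matplotlib 3.10.9.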

Additional observations from a re-analysis of the deposited data

Results flagged for a closer look

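The library titled hyperoxia whose treatment label names another treatment is outside all comparisons. Scaled together with the other 14, it held 3 of the 9 genes above every one of the 7 normoxia libraries, as it did 24.3% of all 15339 genes. TAP1 was at 78.2 CPM, against at most 48.0 in normoxia. HLA-E was at 60.7 CPM, against at most 55.2 in normoxia and at least 66.7 in the 7 hyperoxia libraries with a group. NLRC5 was at 9.83 CPM, against at most 8.41 in normoxia. Groups of 2 or 3 libraries were too small for a rule on single outlying libraries within a group. The hyperoxia library that stood apart was singled out by its gene number and first principal component over all 14 grouped libraries.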

How the results depend on the processing

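No paired analysis was possible because the labels give no replicate numbers and the numbers used here follow accession order. A term for sets of library numbers in the titles was fitted as a covariate and pairs no samples. TAP1 and HLA-E kept their direction in every alternative and every comparison by oxygen, and in the mean of the 3 treatments both stayed called, with TAP1 between 0.93 and 1.18 and HLA-E between 0.64 and 0.84 (log2). The number of members called by oxygen ranged from 2 to 5 over the mean of the 3 treatments when single libraries were left out, 0 to 2 with vehicle, 1 to 4 without additive and 1 to 2 with ATRA. Vehicle against no additive called 0 to 2. The highest counts (5, 4 and 2) came without hyperoxia no-additive replicate 2, which leaves the library that stood apart alone in its group and assumes that it varies like the others. DESeq2 (adding HLA-F) and the 10 libraries (adding TAPBP) called 3 by oxygen. With vehicle, 2 were called by DESeq2, without the filter and with 10 libraries (TAP1 and TAPBP). Only the groups compared called 4 with vehicle, where 33.0% of the genes tested were called. Without additive that setting called 0, where 0.419% were. For the other settings no share of all genes stands beside these counts, so they are not read as results about the members. The heavy chain to B2M ratio was 0.47 with 10 libraries and missed the threshold (exact permutation p = 0.0714); left-out libraries gave 0.37 to 0.55, and 1.00 to 2.10 for TAP1 to TAP2. ATRA comparisons and the interaction called 0 members everywhere. Calls over all genes moved more: 3692 to 8128 by oxygen (4764 in the 14 libraries), 580 to 4665 with vehicle (1420), 58 to 7364 without additive (2324), 1319 to 3465 with ATRA (1975), 22 to 331 for ATRA in hyperoxia (116), 12 to 206 in normoxia (70), 0 to 48 for the interaction (4) and 0 to 3581 for vehicle against no additive (1).

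Some log2 fold changes that were not called in the 14 libraries changed sign; the cause was not tested. Vehicle against no additive gave TAP1 as 0.044 with library totals alone, 0.016 without the filter and 0.0044 with only the groups compared, which also gave TAPBP as 0.00093 for ATRA in normoxia. The 10 libraries gave B2M as -0.013 for oxygen, and the library-number term TAP2 as 0.29 for ATRA in hyperoxia. When single libraries were left out, these ranges of values crossed 0. For oxygen (all 3 treatments) they spanned TAP2 -2.16 to 0.15 and B2M -0.041 to 0.060. For oxygen with vehicle they spanned TAP2 -0.012 to 0.10 and NLRC5 -0.050 to 0.98. For oxygen without additive they spanned TAP2 -6.20 to 0.67, TAPBP -0.30 to 0.40 and B2M -0.040 to 0.26. For oxygen with ATRA they spanned HLA-F -0.80 to 0.19. For ATRA in hyperoxia they spanned HLA-B -0.018 to 0.45 and NLRC5 -0.64 to 0.15. For ATRA in normoxia they spanned HLA-E -0.17 to 0.14 and TAPBP -0.064 to 0.067. For the ATRA by oxygen difference they spanned HLA-E -0.014 to 0.31 and HLA-B -0.52 to 0.010. For vehicle against no additive they spanned HLA-F -0.16 to 2.39, TAP2 -0.087 to 3.34, TAP1 -0.16 to 0.21 and HLA-C -0.17 to 0.024. Depth limits HLA-F, with 0 to 4 counts in 4 hyperoxia libraries, and NLRC5, with 3 counts in 1 normoxia library.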

Other observations

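In the library without a group, the other 6 genes lay at or below the normoxia maximum: HLA-B at 16.6 CPM, HLA-C at 36.9, HLA-F at 1.09, B2M at 93.7, TAP2 at 28.4 and TAPBP at 128.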
